A study of Mus musculus with 4 samples.

Results

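IDMF, isosorbide di-(methyl fumarate), is a pro-drug of dimethyl fumarate that was put on mouse back skin in a lotion during imiquimod treatment. The comparison here is of that lotion with the vehicle lotion. All mice were male BALB/c aged 8 to 9 weeks and had 5% imiquimod (IMQ) cream, 47 mg per day, on about 4 by 2 cm of back skin from day 1 to day 5. Lotion followed each cream application by about 1 h, and skin was taken on day 6. The 2 IMQ+VEH libraries came from skin given vehicle lotion and the single IMQ+IDMF library from skin given IDMF lotion, so 3 of the 4 libraries of the series enter. The library of skin with IMQ cream and no lotion was left out, and every group compared here had imiquimod.

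The genes described were chosen by distance. A gene was kept when its level in IMQ+IDMF lay outside both IMQ+VEH libraries and its gap to the nearer of them was wider than the gap between the 2 IMQ+VEH libraries. Levels were log2 CPM (counts scaled to library size), with library sizes scaled by the trimmed mean of M values (TMM). Of the 20611 genes listed, 14834 passed a filter on low counts, and 3464 of these met the rule. IMQ+IDMF was higher for 1723 genes, 11.6% of those tested, and lower for 1741 genes, 11.7%. These percentages are the background against which each group of genes is read below. The rule used the values it describes, so its members are a description and no test supports them.

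Imiquimod activates Toll-like receptor 7, a sensor of single-stranded RNA in endosomes of macrophages and dendritic cells, and skin treated with it comes to resemble psoriasis. Dimethyl fumarate reacts with thiol groups. It is known to modify KEAP1, the adaptor that holds the transcription factor NRF2 for degradation, and its hydrolysis product monomethyl fumarate is a ligand of the receptor HCAR2. Hair follicles in back skin cycle through growth and rest, and Sonic hedgehog made by follicle epithelium acts on neighbouring cells through its receptors and GLI factors.

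The libraries held 21167149 to 26639628 counts, and 16016 to 16648 genes had a count in the 3 libraries used. Keratinocyte transcripts marked the tissue as skin: Krt10, a keratin of differentiating layers, stood at 16742 to 21078 CPM, and Krt14, the keratin of the basal layer, at 4599 to 5399 CPM. Skeletal muscle transcripts were present in every library, and the 18 muscle markers summed to 36724 and 25439 CPM in the IMQ+VEH libraries and 34137 CPM in IMQ+IDMF. The 2 IMQ+VEH libraries were not alike. The root mean square log2 difference over all tested genes was 0.62 between these 2, against 0.57 and 0.55 between IMQ+IDMF and replicates 1 and 2. The series text calls the libraries independent biological replicates and does not say whether these 2 were prepared together.

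With 1 library against 2, tests had little reach. An exact permutation test of a single gene over the 3 libraries cannot give a p below 0.333. The quasi-likelihood F test of edgeR, two-sided, which borrows its estimate of spread from all genes, called 0 of 14834 genes (0%) at an adjusted p under 0.05, and 293 genes had an unadjusted p under 0.05. DESeq2 called 1 gene, the predicted gene Gm10436, with 0 and 1 counts in the IMQ+VEH libraries and 122 in IMQ+IDMF, and gave 198 genes an unadjusted p under 0.05. The edgeR adjusted p of Gm10436 was 0.148. No gene named below passed, and p-values here reflect only the spread between these samples. The words higher and lower below therefore give the order of 3 libraries.

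Most of the 3464 differences were small. The median distance to the nearer IMQ+VEH library was 0.24 on the log2 scale (1.18-fold) for genes higher in IMQ+IDMF and 0.29 (1.22-fold) for genes lower. The rule favours genes for which the IMQ+VEH libraries lie close: their median gap was 0.07 for higher and 0.10 for lower genes, against 0.30 over all tested genes. A distance of at least 1.5-fold was met by 254 higher and 454 lower genes, and of at least 2-fold by 101 higher and 195 lower. Genes that merely lay outside both IMQ+VEH libraries, whatever the gap between these, made up 27.7% of tested genes above and 27.4% below.

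The edge of the rule shows what it admits. Eif4e2, a cap-binding protein, met the rule with 69.4 and 68.6 CPM in the IMQ+VEH libraries and 70.2 in IMQ+IDMF. Among lower genes Cerk, ceramide kinase, was just inside with 80 and 82.1 CPM against 77.8, and Arhgap18, a GTPase-activating protein, just outside with 19.8 and 17.6 CPM against 15.6. Just inside were also Ttll4 (10.8 and 8.15 against 14.3 CPM) and Zfp933 (13 and 14.9 against 11.3 CPM), and just outside Triobp (75.4 and 78.2 against 81 CPM) and Supt3 (7.55 and 6.71 against 5.97 CPM).

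**Figure D1:**
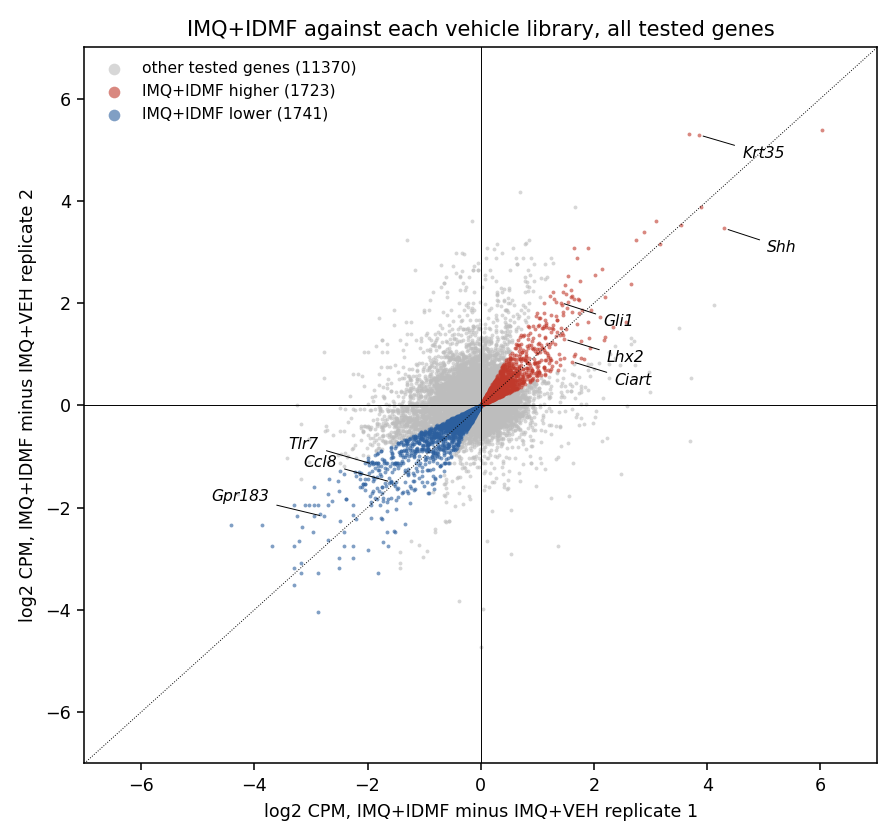
Each point is 1 of 14834 tested genes, placed by its log2 CPM difference between IMQ+IDMF and IMQ+VEH replicate 1 (horizontal) or replicate 2 (vertical); coloured points met the distance rule, 1723 higher and 1741 lower. Coloured points fan out along the diagonal, and most lie near the origin.

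Members did not share a level, a place or a base composition to the same degree. Lower genes were more often weakly expressed: the share of tested genes that were lower ran from 17.7% among the weakest 20% of genes to 7.79% among the strongest, while the higher share ran from 13% to 8.36%. Transcripts of higher genes had a median GC content of 51.1%, those of lower genes 48.8%, and all tested genes 49.9%. From the 20% of genes lowest in GC content to the 20% highest the higher share went from 9.64% to 14.5% and the lower share from 15.1% to 9.50%. The part of GC content in the results was not tested. Median transcript length was 3275 bases for higher and 3255 for lower genes, against 3341 for all tested genes, with tested genes on each chromosome from 8.53% higher (X) to 14.3% (10), leaving out Y, where 5 genes were tested.

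By function, 73 lists of pathways, gene families and cell type markers were counted, of which 70 had at least 5 tested members. The higher share was above 2 times the background in 11 lists and the lower share in 10. Higher lists were DNA replication and repair, the clock, the hedgehog pathway, hair follicle lists, basal keratinocytes and their anchoring, tRNA synthetases, and a list of olfactory and taste receptors. Lower lists held interferon-induced genes, MHC class II, Toll-like receptors, T cell and mast cell genes, purinergic and lipid receptors, metalloproteinases, and clade B serpins with stefins. The lists held 575 of the 3464 genes, so most members have no list here, and some genes are in several lists. In the olfactory and taste receptor list 4 of 13 tested genes were higher (30.8%), while 1464 others did not pass the filter and 2 of the 4 passed it only through IMQ+IDMF.

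**Figure D2:**
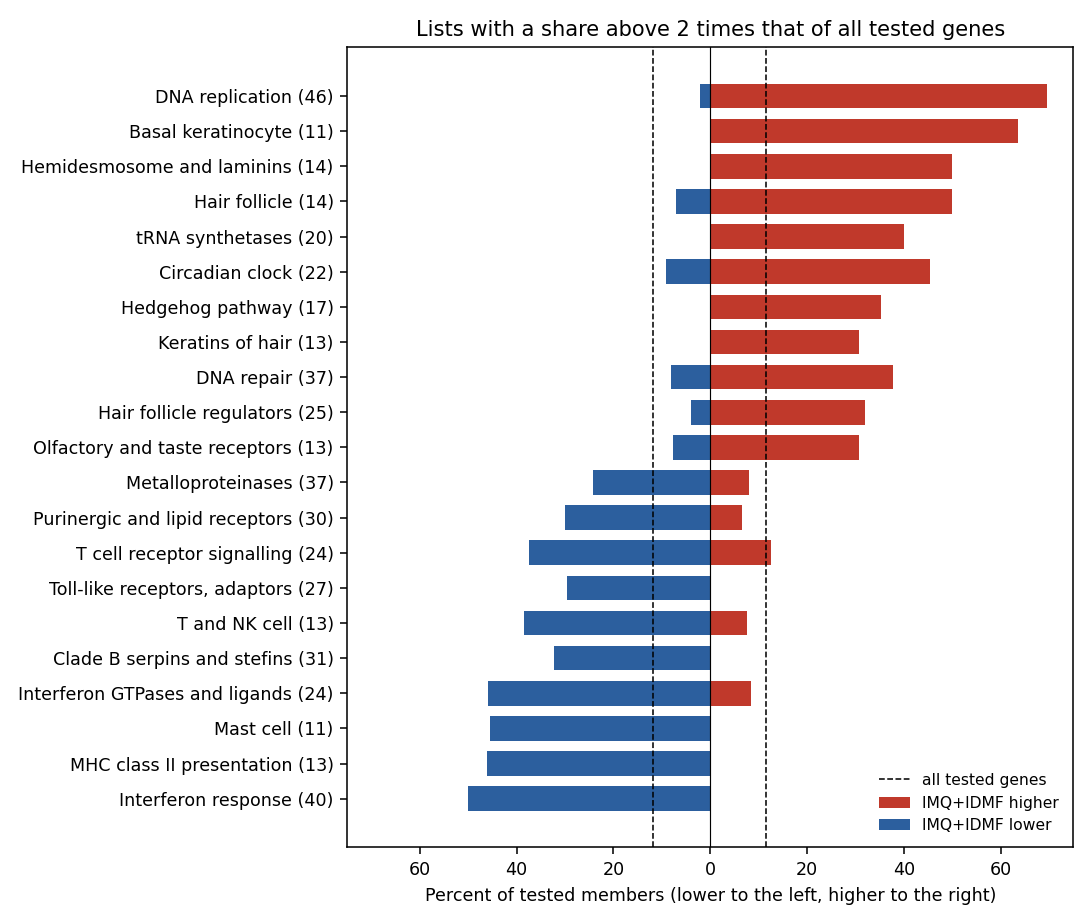
Bars give the percent of each list's tested members (number in brackets) for which IMQ+IDMF was higher (right) or lower (left) by the distance rule; dashed lines mark the 11.6% and 11.7% of all tested genes. DNA replication is at the top with 69.6% higher and the interferon response at the bottom with 50% lower.

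DNA replication genes gave the largest share of any list. Of 46 members, all tested, 32 (69.6%) were higher in IMQ+IDMF, 1 was lower and 41 lay above both IMQ+VEH libraries. The list median was 0.47 above replicate 1 and 0.31 above replicate 2 on the log2 scale, while the IMQ+VEH libraries differed by a median of 0.13, and the median over all tested genes was 0.00 against each. The count ran from 30 to 35 when libraries were scaled by DESeq2 size factors, total counts or the deposited FPKM.

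The helicase that unwinds origins, and the proteins that load and fire it, led the list. Mcm10, which helps to start the helicase, stood at 4.15 and 5.33 CPM in the IMQ+VEH libraries and 9.91 CPM in IMQ+IDMF. Gins2, a subunit of the active helicase, stood at 9.32 and 7.5 against 15.2 CPM, and its exons overlap those of Gse1 on the opposite strand. In both cases IMQ+IDMF was higher than either vehicle library. The edgeR log2 fold changes were 1.07 ± 0.45 (SE) for Mcm10 and 0.85 ± 0.38 for Gins2. Other genes of origin firing, picked here after their values were seen, had the same order: Mcm2 was at 19.6 and 26.4 against 39.1 CPM and the loading factor Cdt1 at 13.3 and 17.4 against 24.9 CPM. Mcm5 (27.2 and 40.8 against 52.8 CPM) was above both libraries yet did not meet the rule, since these differ by more.

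Nucleotide supply and polymerases followed. Tk1, thymidine kinase, stood at 20.6 and 19.8 CPM in the IMQ+VEH libraries and 33 CPM in IMQ+IDMF, with a log2 fold change of 0.71 ± 0.29 (SE); its exons overlap Afmid on the opposite strand. The 3 libraries gave Rrm2, a subunit of ribonucleotide reductase, as 34.1, 37.9 and 49.1 CPM, and Pola1, the catalytic subunit of polymerase alpha, as 12.2, 11.8 and 15.4 CPM. Rpa3 was the 1 lower member, at 13.6, 13.6 and 13.3 CPM, a difference of 0.03 on the log2 scale. Dtl, which marks CDT1 for destruction in S phase and was among the 15 higher genes with the widest distance, stood at 8.7 and 7.46 against 16.3 CPM. Genes of the later mitosis list met the rule as higher in 5 of 38 (13.2%), close to the background, among them Birc5 at 17.7 and 15.9 against 21.9 CPM. Without regard to the gap between the vehicle libraries, 24 of the 38 lay above both and 2 below both, where 27.7% and 27.4% of all tested genes did. The list median was 0.06 above replicate 1 and 0.36 above replicate 2, and replicate 2 was a median of 0.30 below replicate 1.

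E2F factors are known to switch on replication genes, so promoter windows were searched for the letters of an E2F core, GCGGGAA, on both strands. Windows run from 250 bases before to 50 after the start of transcription in RefSeq (GRCm38.p6). Of the 33 replication members that met the rule 29 had a window, and 13 of these (44.8%) held the core. Over the whole list the share was 16 of 38 (42.1%), so members that met the rule and the list as a whole had close shares. A gene was counted when any of its windows held the core. Of all 32851 single windows 4.60% held it, which is a share of windows and not a like measure to these shares of genes. The windows of Cdc6, the helicase loader (5.24 and 5.04 against 7.65 CPM, chr11:98907901-98908200, plus strand), and Pola1 (chrX:93632106-93632405, minus strand) are shown as examples with the core in capitals on either strand, and a match is a description of letters only.
Cdc6: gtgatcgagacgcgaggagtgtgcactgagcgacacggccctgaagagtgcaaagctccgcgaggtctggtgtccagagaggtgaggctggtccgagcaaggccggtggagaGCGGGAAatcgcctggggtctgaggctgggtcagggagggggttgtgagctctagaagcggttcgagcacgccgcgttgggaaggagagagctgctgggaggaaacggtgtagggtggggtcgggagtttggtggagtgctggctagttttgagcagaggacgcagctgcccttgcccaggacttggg
Pola1: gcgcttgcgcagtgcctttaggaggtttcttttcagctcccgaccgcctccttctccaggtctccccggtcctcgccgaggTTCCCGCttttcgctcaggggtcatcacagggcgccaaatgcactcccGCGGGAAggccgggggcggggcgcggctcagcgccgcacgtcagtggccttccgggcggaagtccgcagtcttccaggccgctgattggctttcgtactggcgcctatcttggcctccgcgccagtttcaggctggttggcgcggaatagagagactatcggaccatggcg

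DNA repair genes had 14 of 37 members higher (37.8%) and 3 lower, with a median of 0.12 above replicate 1 and 0.20 above replicate 2. Chek1, the kinase of the replication checkpoint, stood at 4.95 and 4.64 CPM in the IMQ+VEH libraries and 9.73 CPM in IMQ+IDMF, a log2 fold change of 1.02 ± 0.44 (SE). Ung, which removes uracil from DNA, stood at 9.17 and 12 against 20 CPM. These were clear of both vehicle libraries. Lower repair genes such as Xrcc6 and Rad54l differed from the nearer library by 0.22 and 0.18 on the log2 scale.

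Hedgehog signalling was represented among the 15 higher genes with the widest distance. One of these, Gli1, a GLI factor and target of the pathway (chromosome 10, 127329882 to 127341974 in GRCm38), stood at 8.81 and 5.78 CPM in the IMQ+VEH libraries and 23.5 CPM in IMQ+IDMF. Its log2 fold change was 1.69 ± 0.38 (SE), with an unadjusted edgeR p of 0.000757 and an adjusted p of 0.99997. Its exons overlap those of Arhgap9 on the opposite strand, and reads of the 2 cannot be told apart without strand. Gli2 stood at 6.9 and 4.89 against 11.1 CPM. For both genes IMQ+IDMF exceeded both vehicle libraries, and IMQ+VEH replicate 2 was the lowest.

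Of 17 hedgehog genes tested 6 were higher (35.3%) and 0 lower, under each of the 4 scalings. They included Gli1, Gli2, Gli3, the decoy receptor Hhip, and Shh, the ligand, for which 2 and 4 counts in the IMQ+VEH libraries faced 67 in IMQ+IDMF, the only library that took it past the filter. Of the 13 hedgehog genes that averaged at least 50 counts 4 were higher. Ptch1, the main receptor and also a target, did not share the order, at 20.7, 9.23 and 15.1 CPM. Smo, the signal transducer, stood at 76.1, 69 and 77.2 CPM. The list median was 0.21 below replicate 1 and 0.45 above replicate 2, so the 2 medians differed in sign.

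Hair follicle genes stood beside them. Of 14 tested follicle markers 7 were higher (50%) and 1 was lower. The filter fixed part of that count: 4 of the 7 had under 10 counts in both vehicle libraries and were tested only through IMQ+IDMF. Of the 7 markers that averaged at least 50 counts, 3 were higher and 1 was lower. Hoxc13, a homeobox factor that controls hair keratins, stood at 3.14 and 3.11 CPM in the IMQ+VEH libraries and 8.06 CPM in IMQ+IDMF, a log2 fold change of 1.36 ± 0.49 (SE). Lhx2, a factor of follicle stem cells and hair germ, stood at 10.4 and 11.8 against 29 CPM, with a log2 fold change of 1.39 ± 0.32. Both vehicle libraries lay close here and IMQ+IDMF stood apart. Tchh, trichohyalin of the inner root sheath, stood at 3.18 and 3.46 against 6.29 CPM.

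Keratins of the growing hair shaft were near the limit of detection in vehicle skin. Krt35 had 4 and 0 counts in the IMQ+VEH libraries and 72 in IMQ+IDMF, and Krt85 had 0 and 0 against 26, where 3 counts is the limit that a count of 0 allows. Krt71, of the inner root sheath, had 8 and 3 against 26. Of the hair keratins and keratin-associated proteins 13 passed the filter and 4 of these were higher (30.8%), among them 3 of the genes just given; the other 63 had too few counts, so this share says nothing of the family. Foxn1, a factor of hair and epidermal differentiation, had the opposite order at 20.1 and 21.4 against 14.8 CPM. The summed level of the follicle markers was 58.6 and 67.7 CPM in the IMQ+VEH libraries and 85.5 CPM in IMQ+IDMF. That sum includes Krt35, Krt71, Krt85 and Shh, which passed the filter only through IMQ+IDMF. The filter therefore fixed part of its difference. The sum of melanocyte markers was 31.5 and 36.5 against 43.9 CPM. Of the 7 melanocyte markers 1, Tyr, met the rule (14.3%), while 4 lay above both vehicle libraries and 0 below both. Mitf, Kit and Mlana lay between them, Mitf at 14.3, 11 and 11.9 CPM. For Dct, at 3.83 and 8.64 against 10.4 CPM, the vehicle libraries differed by 1.16 on the log2 scale. In bulk skin, more cells of a type and more RNA per cell cannot be told apart. How much of the hedgehog and replication results came with hair follicle content was not tested.

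The clock list had 10 of 22 members higher (45.5%) and 2 lower. Members of 1 arm stood together: Ciart, a repressor of the CLOCK-ARNTL pair (chromosome 3, 95878503 to 95882251), stood at 4.26 and 7.21 CPM in the IMQ+VEH libraries and 13.1 CPM in IMQ+IDMF. Per2, a core repressor, stood at 5.24 and 5.92 against 11.1 CPM, and Dbp, an output factor driven by CLOCK-ARNTL, at 32.3 and 28.9 against 56.4 CPM. IMQ+IDMF was highest in each. The log2 fold changes were 1.20 ± 0.44 (SE) for Ciart, 0.99 ± 0.42 for Per2 and 0.88 ± 0.27 for Dbp, whose exons overlap Sphk2 on the opposite strand.

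Genes of the opposite phase lay the other way. Nfil3, which competes with DBP for its binding sites, stood at 12 and 12.4 CPM in the IMQ+VEH libraries and 8.06 CPM in IMQ+IDMF. Arntl, the activator, was below both at 22.5 and 28.3 against 17.9 CPM but did not meet the rule; it was picked after its value was seen. Nr1d1 did not differ in this way, at 123, 106 and 124 CPM. The labels give no hour of collection for any mouse, so the time of day cannot be told apart from the lotion. The window of Ciart (chr3:95882179-95882478, minus strand) is shown because it holds 3 E-boxes, CACGTG, the letters bound by CLOCK-ARNTL, in capitals. Of all windows 7.15% hold at least 1; windows were found for 77.3% of the clock list, so its share is not given.
Ciart: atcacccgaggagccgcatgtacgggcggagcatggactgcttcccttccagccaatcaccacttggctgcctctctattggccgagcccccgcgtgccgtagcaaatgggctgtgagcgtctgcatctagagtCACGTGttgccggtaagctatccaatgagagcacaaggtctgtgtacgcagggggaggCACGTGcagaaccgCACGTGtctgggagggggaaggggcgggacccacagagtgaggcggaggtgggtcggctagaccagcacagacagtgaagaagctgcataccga

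**Figure D3:**
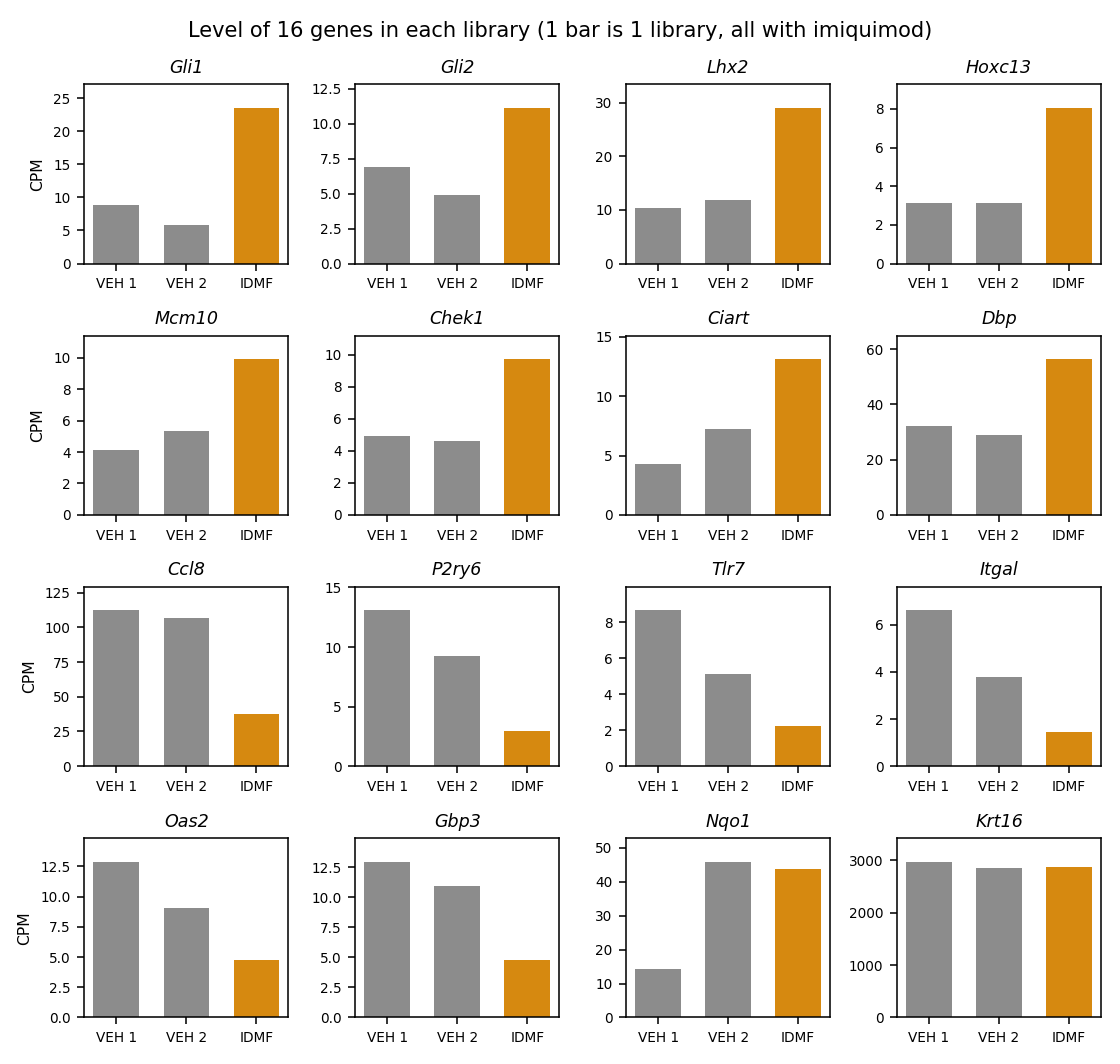
Bars give the TMM-scaled CPM of 16 genes in IMQ+VEH replicates 1 and 2 (grey) and IMQ+IDMF (orange), 1 library per bar, on axes from 0. The upper 8 genes are highest in IMQ+IDMF, the next 6 lowest, and for Nqo1 and Krt16 it lies between the vehicle libraries.

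Basal keratinocytes and their anchoring to the basement membrane gave a smaller but regular difference. Of 11 basal markers 7 were higher (63.6%) and 0 lower, with medians of 0.38 and 0.31 above the 2 replicates and 0.12 between these. Krt5, the basal partner of Krt14, stood at 3776 and 4106 CPM in the IMQ+VEH libraries and 4937 CPM in IMQ+IDMF. Col17a1, the hemidesmosome collagen, stood at 338 and 420 against 534 CPM, and Itga6, its integrin partner, at 153 and 151 against 199 CPM. Of 14 hemidesmosome and laminin genes, which overlap this list, 7 were higher (50%). With DESeq2 size factors the counts were 4 of 11 and 5 of 14. Suprabasal markers did not follow: 0 of 11 were higher and 1, the desmosomal cadherin Dsc1, was lower at 967 and 968 against 889 CPM.

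Among small but even differences were 8 of 20 cytosolic tRNA synthetases (40%), such as Dars at 59.2 and 58.5 against 69.8 CPM and Farsb at 42.3 and 42.2 against 49.5 CPM. That count was 3 of 20 with the deposited FPKM, so it depends on the scaling. Early response genes were higher in 4 of 28 (14.3%), near the background, led by Egr1, a growth factor-induced zinc finger factor, at 85.2 and 88.3 against 131 CPM, and Dusp6, a phosphatase of ERK, at 33.8 and 35 against 47.6 CPM. Ribosomal proteins were higher in 1 and lower in 2 of 84. Of 48 Wnt genes 8 were higher (16.7%), including the stem cell receptor Lgr6 at 9.39 and 7.26 against 13.6 CPM, and 3 were lower, led by the ligand Wnt2 at 6.5 and 6.07 against 1.99 CPM. With total counts or FPKM 4 Wnt genes were higher.

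Other genes with the widest higher distances had no list in common. Fras1, an extracellular protein of the dermal-epidermal junction, stood at 3.25 and 3.51 against 8.19 CPM. Fetub, a secreted protease inhibitor of the cystatin family, stood at 8.78 and 14.1 against 27.7 CPM, and Cacna1g, a T-type calcium channel, at 3.43 and 2.12 against 7.15 CPM. Each was at least 1.96-fold above the nearer vehicle library. The rest were Golga7b, Katnal2, Dpysl5, Mmp12 and Slco4a1, with IMQ+IDMF at 3.44 to 7.51 CPM.

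Interferon-induced genes made up the list with the largest lower share. Of 40 tested 20 were lower in IMQ+IDMF (50%), 0 were higher, and 33 lay below both vehicle libraries. The median was 0.64 below replicate 1 and 0.39 below replicate 2, with 0.17 between these, replicate 2 being the lower. The lower count ran from 17 to 20 over the 4 scalings. Oas2, an RNA-activated antiviral synthetase, stood at 12.9 and 9.08 CPM in the IMQ+VEH libraries and 4.75 CPM in IMQ+IDMF. Usp18, which removes ISG15 from proteins and dampens the receptor, stood at 5.45 and 5.97 against 3.08 CPM, and Mx2, a dynamin-like GTPase, at 2.13 and 3.31 against 1.18 CPM. IMQ+IDMF was the lowest of 3 libraries each time. Irf7, the factor that amplifies interferon after Toll-like receptor 7 signalling, was picked after its values were seen and stood at 43 and 55.1 against 25 CPM, a log2 fold change of -0.97 ± 0.30 (SE). Mx1 and Cmpk2 of the same list hardly differed, Mx1 with 4.66, 4.15 and 4.34 CPM.

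GTPases and other genes that interferon gamma induces lay the same way, with 11 of 24 lower (45.8%) and 2 higher. Gbp3, a guanylate-binding protein, stood at 13 and 10.9 CPM in the IMQ+VEH libraries and 4.8 CPM in IMQ+IDMF, a log2 fold change of -1.32 ± 0.43 (SE). Iigp1, an immunity-related GTPase, stood at 26.4 and 24.4 against 12.3 CPM, and Tgtp2, of the same family, at 6.86 and 5.92 against 2.17 CPM, though reads may be shared with its near copy Tgtp1. Both were well clear of the vehicle pair. The 2 higher members were Cd274, the ligand of PD-1, at 18.1 and 20.2 against 24.9 CPM, and the chemokine Cxcl10, with 21 and 24 counts against 68.

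Promoter windows of Ifit3 (9.64 and 7.46 against 4.84 CPM, chr19:34583279-34583578, plus strand) and Rsad2 (2.96 and 2.91 against 1.63 CPM, chr12:26456403-26456702, minus strand) are shown for the core of the interferon-stimulated response element, GAAANNGAA, which STAT and IRF factors bind. Both encode antiviral proteins. The core is in capitals on either strand, 3 times in Ifit3 and 1 time in Rsad2, and 8.56% of all windows hold it. Windows were found for 67.5% of the interferon list, too few for a share.
Ifit3: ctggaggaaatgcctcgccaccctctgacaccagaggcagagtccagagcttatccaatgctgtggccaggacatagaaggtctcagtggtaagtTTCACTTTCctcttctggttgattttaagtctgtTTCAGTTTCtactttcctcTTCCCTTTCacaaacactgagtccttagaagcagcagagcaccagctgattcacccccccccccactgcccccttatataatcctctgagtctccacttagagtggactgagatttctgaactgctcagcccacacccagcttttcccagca
Rsad2: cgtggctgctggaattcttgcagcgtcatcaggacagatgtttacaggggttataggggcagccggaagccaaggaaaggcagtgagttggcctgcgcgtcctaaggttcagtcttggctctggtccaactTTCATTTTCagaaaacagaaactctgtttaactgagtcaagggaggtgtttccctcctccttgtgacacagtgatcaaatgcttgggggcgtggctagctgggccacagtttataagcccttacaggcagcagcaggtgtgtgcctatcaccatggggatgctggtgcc

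**Figure D4:**
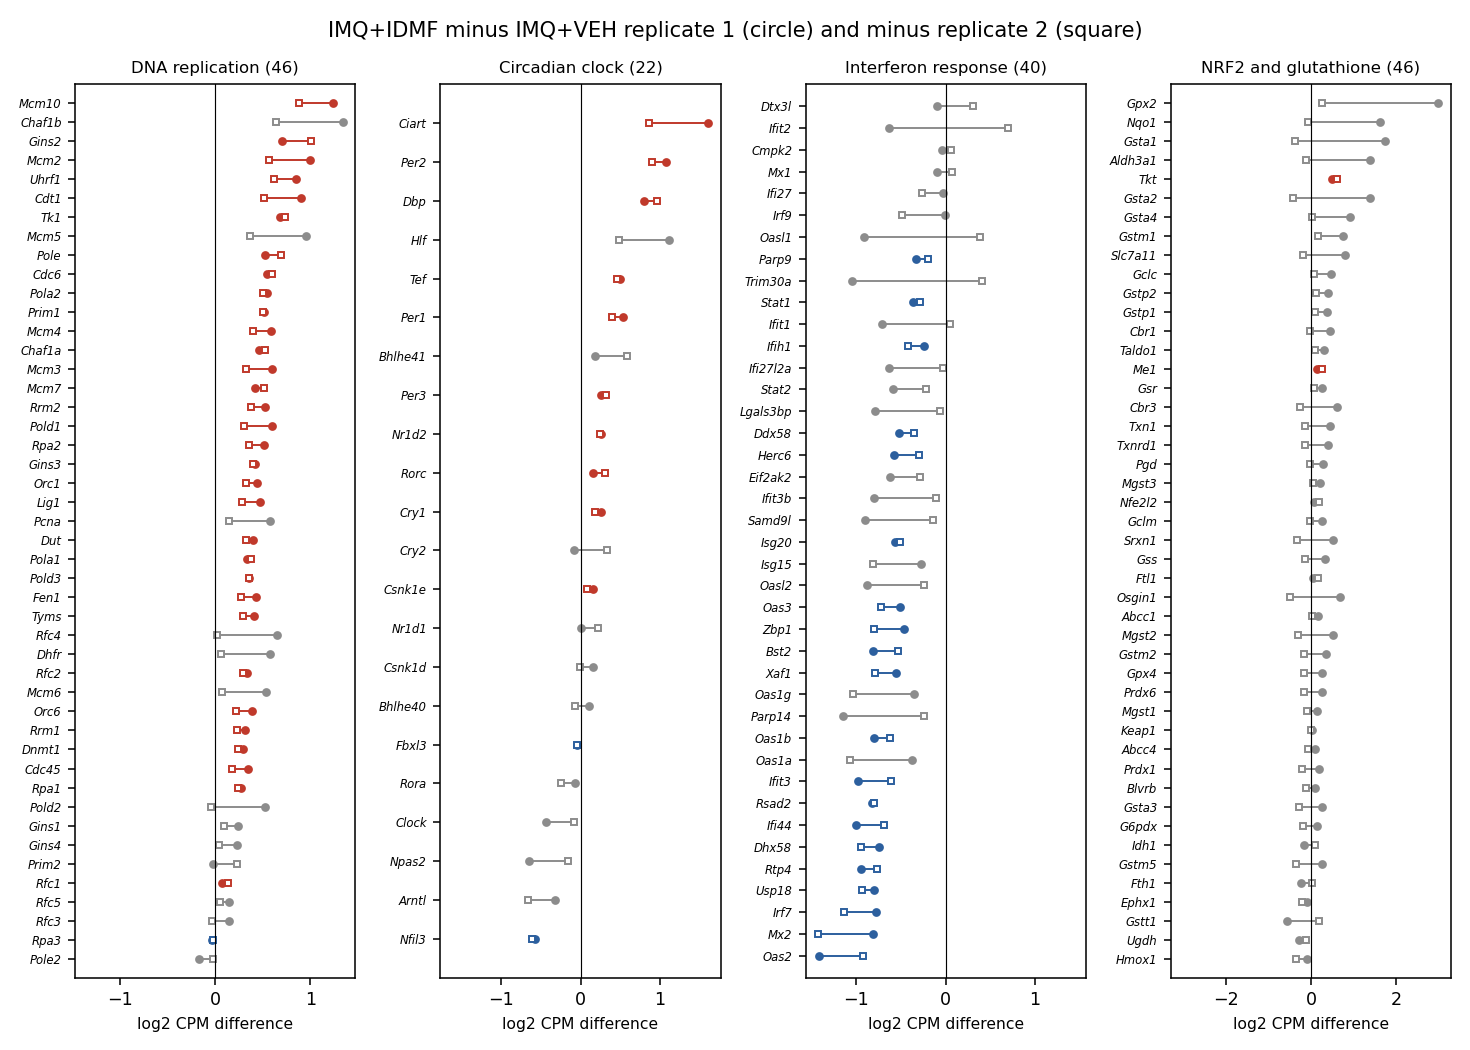
Each row is a gene, with the log2 CPM difference of IMQ+IDMF to IMQ+VEH replicate 1 (circle) and replicate 2 (square); red and blue rows met the distance rule, higher and lower. Replication genes lie mostly right of 0 and interferon genes mostly left, while NRF2 genes lie right of 0 against replicate 1 and about 0 against replicate 2.

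The receptor of imiquimod was among the lower genes. Tlr7 (chromosome X, 167304929 to 167330558) had 8.67 and 5.13 CPM in the IMQ+VEH libraries and 2.26 CPM in IMQ+IDMF, from 240, 104 and 50 counts, a log2 fold change of -1.61 ± 0.57 (SE, unadjusted edgeR p 0.0158, adjusted p 0.99997). The vehicle replicates differed from each other by 0.75 on the log2 scale. Of 27 Toll-like receptor and adaptor genes 8 were lower (29.6%) and 0 higher. Tlr1, which pairs with TLR2 to sense lipoproteins, stood at 4.77 and 2.72 against 1.04 CPM, and Ly86, the MD-1 partner of RP105, at 11.7 and 8.1 against 4.25 CPM.

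Some receptors of leukocytes were lower with them. P2ry6, a receptor for uridine diphosphate, stood at 13.1 and 9.23 CPM in the IMQ+VEH libraries and 2.99 CPM in IMQ+IDMF, a log2 fold change of -1.90 ± 0.48 (SE). Itgal, the alpha chain of LFA-1, stood at 6.61 and 3.8 against 1.45 CPM, and Itgb7, a beta chain of lymphocyte homing integrins, at 8.45 and 5.78 against 2.35 CPM. In each, replicate 1 was highest and IMQ+IDMF lowest. Ptprc, the pan-leukocyte phosphatase CD45, stood at 21.8 and 17.8 against 9.28 CPM, and Cd200r1, an inhibitory receptor of myeloid cells, at 4.66 and 2.62 against 0.95 CPM. Among purinergic and lipid receptors 9 of 30 were lower (30%) and 2 higher, a count that was 4 with total counts or FPKM. Fc receptor and ITAM genes had 5 of 23 lower (21.7%) and leukocyte integrins and selectins 4 of 18 (22.2%). Of these 18 genes 8 lay below both vehicle libraries and 0 above both. Their median was 0.50 below replicate 1 and 0.21 above replicate 2, and Itga4 lay between the vehicle libraries at 8.85, 4.74 and 6.88 CPM. Chemokine receptors had 4 of 20 lower (20%) and 0 higher, with 12 below both and 2 above both.

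Macrophage marker transcripts moved with these receptors. The 18 markers, all tested and none at 0 in any library, summed to 1368 and 775 CPM in the IMQ+VEH libraries and 537 CPM in IMQ+IDMF, and 17 of 18 lay below both. Replicate 2 was itself far below replicate 1 for most of them, and 2 met the rule: Fcgr1, the high-affinity IgG receptor, at 7.33 and 5.18 against 2.76 CPM, and Mpeg1, perforin-2, at 27.2 and 27.9 against 17 CPM. Lyz2, lysozyme of myeloid cells, illustrates the rest with 394 and 226 against 134 CPM. The list median was 1.37 below replicate 1 and 0.41 below replicate 2, with 0.85 between the vehicle replicates. What part macrophage content had in the lower receptors and interferon genes was not tested, and fewer cells cannot be told apart from less RNA per cell.

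T cell receptor signalling genes were lower in 9 of 24 (37.5%) and higher in 3. Cd3g, a chain of the T cell receptor complex, stood at 3.79 and 3.06 CPM in the IMQ+VEH libraries and 1.31 CPM in IMQ+IDMF, and Fyn, a kinase of the same pathway, at 32.9 and 26.1 against 17.7 CPM. Cd247, the zeta chain, had 55 and 43 counts against 12. Not all T cell transcripts shared this order: Cd4 had 24 and 13 counts against 38, Cd3d had 50, 14 and 30, and Cd8a had 9, 4 and 11. The T and NK cell markers had 5 of 13 lower (38.5%), 2 of these with under 10 counts in IMQ+IDMF, and 1 higher, on a summed level of 17.8, 19.9 and 14.5 CPM, which is low throughout.

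Antigen presentation on MHC class II was lower in 6 of 13 genes (46.2%) and higher in 0, and 9 of 13 with total counts or FPKM. Among the 6, H2-Oa had 19 and 9 counts against 2. Of the 13 genes 10 lay below both vehicle libraries and 0 above both, with H2-Aa, H2-Ab1 and Cd74 below both without meeting the rule. Ciita, H2-Ob and H2-DMb2 lay between the vehicle libraries, Ciita at 8.85, 6.52 and 7.02 CPM. H2-Eb1, a class II beta chain, stood at 121 and 155 CPM in the IMQ+VEH libraries and 91.4 CPM in IMQ+IDMF, and Ctss, the protease that trims the invariant chain, at 82 and 59.1 against 34.6 CPM. Dendritic and Langerhans cell markers summed to 731 and 975 against 650 CPM, with Cd207, langerin, at 16.3, 25.8 and 15.6 CPM. In that sum and for Cd207 replicate 2 was the highest library, unlike for macrophage markers. Cd74, H2-Ab1 and Epcam made up most of the sum, and Cd74 and H2-Ab1 are also in the class II list, so the 2 lists are not separate. Of 12 markers 8 lay below both vehicle libraries and 1, Flt3, above both, at 1.7 and 0.889 against 2.67 CPM. Zbtb46 lay between them at 2.42, 1.18 and 2.31 CPM. Ccr7, the homing receptor of migrating dendritic cells, had 21 and 14 counts in vehicle skin and 0 in IMQ+IDMF, which allows up to 0.136 CPM. MHC class I genes had 4 of 19 lower (21.1%) and 1 higher, and 7 lower with FPKM.

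Of 11 tested mast cell markers 5 were lower (45.5%) and 0 higher. Lower were the proteases Cpa3, Cma1, Mcpt4 and Tpsb2 and the receptor Mrgprb1, while the protease Tpsab1 did not meet the rule at 1.37, 0.543 and 0.407 CPM. Cma1, mast cell chymase, stood at 10.9 and 9.63 CPM in the IMQ+VEH libraries and 5.3 CPM in IMQ+IDMF, Mcpt4 at 10.4 and 8.59 against 5.34 CPM, and Cpa3, carboxypeptidase A3, at 9.17 and 6.37 against 4.39 CPM. Kit and Gata2, which mast cells need but other skin cells also express, did not share this, Kit with 2.82, 2.07 and 2.35 CPM. The listed markers Hdc, at 6.25, 1.88 and 3.03 CPM, and Ms4a2, at 0.867, 0.346 and 0.95 CPM, did not share it either. Of the 11 markers 7 lay below both vehicle libraries and 2 above both. Mrgprg, of a family of itch and mast cell receptors, had the widest distance of all eligible lower genes, with 158 and 70 counts against 16, or 5.71 and 3.46 against 0.724 CPM.

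Chemokines were split. Ccl8, a ligand of CCR8 in mice (chromosome 11, 82115185 to 82116799), stood at 112 and 106 CPM in the IMQ+VEH libraries and 37.5 CPM in IMQ+IDMF, from 3108, 2156 and 829 counts. Its log2 fold change was -1.54 ± 0.28 (SE), with an unadjusted edgeR p of 0.000145. The vehicle libraries were close and IMQ+IDMF was 2.83-fold below the nearer. Ccl9, of myeloid cells, stood at 40.2 and 26.5 against 16.7 CPM and Ccl2, a ligand of CCR2, at 3.21 and 3.65 against 2.35 CPM. Of 29 chemokine ligands 6 were lower (20.7%) and 3 higher (10.3%). The filter fixed part of the higher count: 2 of the 3 had under 10 counts in both vehicle libraries and were tested only through IMQ+IDMF. Of the 27 ligands that reached 10 counts in vehicle skin 1 was higher. With total counts or FPKM 4 were lower and 5 higher, so the balance of directions depends on the scaling.

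Matrix and fibroblast genes differed between the vehicle libraries too, and their families did not share a direction. Of 38 collagens 8 were higher (21.1%), 1 of them tested only through IMQ+IDMF, and 3 were lower (7.89%). The collagen median was 0.81 below replicate 1 and 0.26 above replicate 2. Col7a1, the collagen of anchoring fibrils, met the rule at 110 and 109 against 120 CPM, while Col1a1, of dermal fibrils, stood at 1165, 599 and 414 CPM and did not. Elastic fibre and matrix genes had 6 of 37 lower (16.2%) and 0 higher, and 2 lower with total counts or FPKM. Fibroblast markers summed to 7188 and 3802 CPM in the IMQ+VEH libraries and 2531 CPM in IMQ+IDMF, and 11 of 13 lay below both, yet 2 met the rule, Pi16 and Lum. Among single genes that met the rule, Adamts2, which trims procollagen, stood at 84.1 and 70.7 against 38.3 CPM, with a log2 fold change of -1.02 ± 0.28 (SE), and Lox, which crosslinks collagen, at 39.7 and 25.6 against 13.4 CPM. Cthrc1, a secreted protein of collagen-making cells, stood at 5.67 and 5.63 against 1.95 CPM, and Pdgfrl at 25.9 and 20 against 7.6 CPM. Of 37 metalloproteinase genes 9 were lower (24.3%), 3 of these with under 10 counts in IMQ+IDMF. Another 3 were higher, 1 of them tested only through IMQ+IDMF, and named among the 3 is Mmp12, macrophage elastase, at 1.52 and 1.83 against 3.58 CPM. The part of fibroblast content was not tested.

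**Figure D5:**
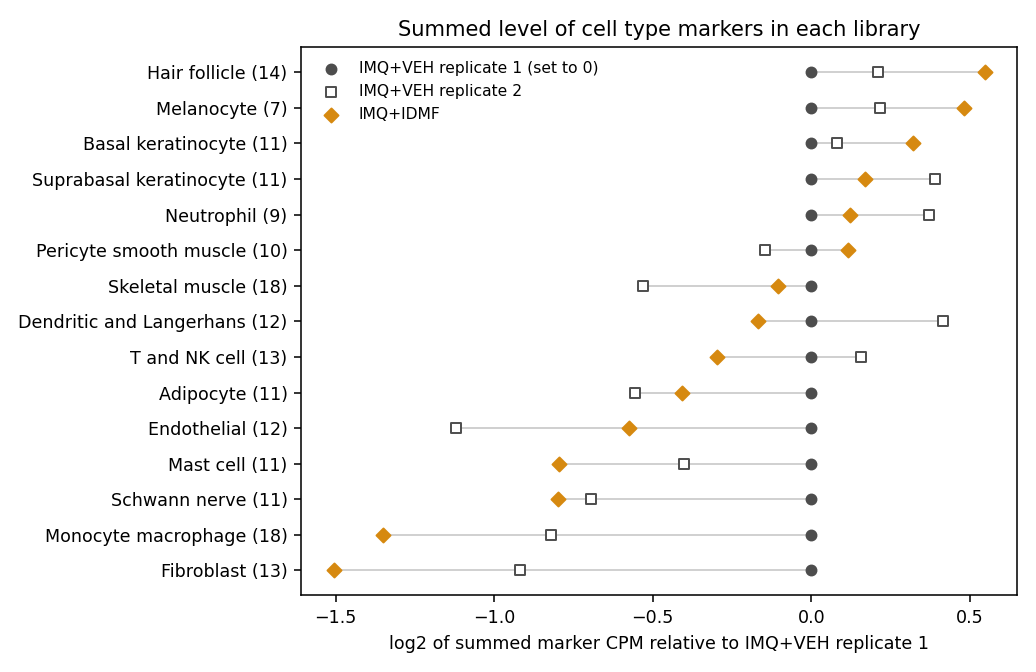
Points give the log2 of summed marker CPM in IMQ+VEH replicate 2 (square) and IMQ+IDMF (diamond) relative to IMQ+VEH replicate 1 (circle, at 0) for 15 cell types, with the number of tested markers in brackets. Fibroblast, macrophage and mast cell sums are lowest in IMQ+IDMF with replicate 2 between, and follicle, melanocyte and basal keratinocyte sums are highest there. The follicle sum includes 4 markers that passed the filter only through IMQ+IDMF, and 1 of the 7 melanocyte markers met the distance rule.

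Other genes were among the 15 lower ones with the widest distance. Kcna1, a voltage-gated potassium channel, stood at 10.7 and 5.97 CPM in the IMQ+VEH libraries and 1.81 CPM in IMQ+IDMF, and Kcnip3, a calcium-binding channel partner, at 4.73 and 3.6 against 1.09 CPM. Pmp2, a lipid-binding myelin protein of Schwann cells, stood at 4.66 and 4.39 against 1.49 CPM. Opcml, a neural adhesion protein, stood at 7.37 and 5.13 against 1.72 CPM. The 11 Schwann cell and nerve markers as a list had 1 lower and 1 higher and summed to 508, 314 and 292 CPM.

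Families of the outer epidermis differed in their counts. Clade B serpins and stefins, inhibitors of proteases, had 10 of 31 lower (32.3%) and 0 higher, with Stfa2 at 78.9 and 78.8 CPM in the IMQ+VEH libraries and 55.5 CPM in IMQ+IDMF and Serpinb3c at 65.6 and 64 against 49.2 CPM. The cornified envelope list had 8 of 43 lower (18.6%) and 1 higher, and its median was 0.26 above replicate 1 and 0.40 below replicate 2. The lower members were led by Lce3b at 15 and 11.7 against 5.75 CPM and Sprr2f at 8.96 and 12.9 against 4.93 CPM. The higher member was Tchh. Antimicrobial genes had 5 of 31 lower (16.1%) and 0 higher, near the background, and 3 lower with total counts, with the beta-defensin Defb4 at 3.94 and 2.76 against 0.996 CPM. Members of these families are near copies of each other, and how the authors assigned reads that fit several is not given in the sources used.

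The targets that fumarate is known for did not stand apart. Of 46 NRF2 and glutathione genes 2 were higher (4.35%) and 0 lower. With total counts 6 were higher and 2 lower, and with FPKM 5 and 3, where 12.8% and 9.90% of all tested genes were higher. The 2 higher genes were Tkt, transketolase, at 205 and 188 CPM in the IMQ+VEH libraries and 287 CPM in IMQ+IDMF, and Me1, malic enzyme, at 443 and 408 against 489 CPM, and both also serve carbon metabolism. Nqo1, a quinone reductase and usual NRF2 readout, stood at 14.3 and 45.9 against 43.7 CPM, so that the vehicle libraries lay 1.68 apart on the log2 scale and IMQ+IDMF between them. Slc7a11, the cystine transporter, had the same order with 69.3, 138 and 121 CPM, as did Txnrd1, thioredoxin reductase, with 106, 154 and 141 CPM. Over the list the median was 0.28 above replicate 1 and 0.09 below replicate 2.

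Nfe2l2, which encodes NRF2, stood at 89.6 and 83.1 against 94 CPM and Keap1 at 62.6 and 64.6 against 64.1 CPM. Hmox1, heme oxygenase, was lowest in IMQ+IDMF at 75.5 and 89.8 against 70.6 CPM without meeting the rule. Gclm, of glutathione synthesis, stood at 23.7, 28.7 and 28.4 CPM, and Hcar2 at 81.3, 106 and 90.2 CPM. Gapdh, a thiol enzyme that fumarates modify as a protein, stood at 2316, 2226 and 2222 CPM. Of the 46 list genes 39 had a promoter window, and 33.3% of these 39 held the antioxidant response element core TGACNNNGC in any window. Of all single windows 12.4% held it, a share of windows that is not a like measure to the share of genes.

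Cytokines of the IL-23 and IL-17 axis, which drive psoriasis-like inflammation, did not meet the rule in their main members. Il17a had 70 and 8 counts in the IMQ+VEH libraries and 12 in IMQ+IDMF, and Il23a had 31, 18 and 25. The axis list had 4 of 27 higher and 4 lower (14.8% each), and with FPKM 2 of each. Il1b had 28, 46 and 66 counts and Tnf 136, 44 and 91. Krt16 and Krt6a, keratins of thickened epidermis, stood at 2971, 2850 and 2863 CPM and at 1249, 919 and 990 CPM. S100a8, a calprotectin subunit, stood at 1825, 893 and 762 CPM, lowest in IMQ+IDMF but with the wider gap between the vehicle replicates. The IL-1 family had 4 of 23 lower (17.4%) and 2 higher, and 9 lower and 3 higher with total counts or FPKM. Among the 4 were the IL-33 receptor Il1rl1 with 39, 32 and 10 counts, and Il1f8, an IL-36 cytokine, at 134 and 145 against 106 CPM.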

How the data were processed

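RNA from back skin was read in single-end runs of 50 cycles, per the labels' protocols. For each library the authors deposited a count and an FPKM value for 20611 gene symbols, per the file headers. TopHat2, Cufflinks, HTSeq and the builds GRCm38 and mm10 appear in the submitters' processing notes. Neither versions, nor the strand setting, nor the treatment of multi-mapping reads is given in the sources used here. The deposited counts were analysed with edgeR 4.0.16 under R 4.3.3 by the two-sided quasi-likelihood F test, after filterByExpr (a count of about 10, a total of 15) and TMM scaling. Adjustment was by Benjamini and Hochberg over 14834 genes, at a threshold of 0.05. The fit had 1 residual and 11.1 prior degrees of freedom, took the spread of the single IMQ+IDMF library from the IMQ+VEH pair, and gave a biological coefficient of variation of 24.1%. Log2 CPM used a prior count of 2. The SE of a log2 fold change was derived from it and its F statistic. Alternatives were DESeq2 1.42.0, other scalings, filters and prior counts, the deposited FPKM as log2(FPKM + 0.1), the IMQ library as an added group, and each IMQ+VEH library left out. The fit was tested on simulated data.

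Members and lists were chosen with earlier results of these data known. Named genes average at least 1 in log2 CPM and carry no predicted, clone or antisense name. They are the 15 higher and 15 lower with the widest distance to the nearer IMQ+VEH library, up to 3 per list and direction, 17 chosen for the treatment, and 2 on each side of the rule's edge in each direction. Other genes were chosen after their values were seen. Positions and overlaps came from GENCODE M21, which held 14365 of the tested genes. Promoter windows came from RefSeq (GRCm38.p6) and were found for 75.6% of tested genes, so motif shares over all higher or lower genes are not given. Some genes that the rule names are not reported here.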

Additional observations from a re-analysis of the deposited data

How the results depend on the processing

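Counts of higher genes ran from 1422 to 2340 and of lower genes from 1391 to 2050 over the 7 other scalings, filters and prior counts, within 1.5 times the main counts, but the genes were not all the same: with FPKM 969 of 1723 higher (56.2%) and 1188 of 1741 lower genes (68.2%) were shared, and with total counts 1119 and 1087. Asking also for a distance of 1.5-fold left 254 higher and 454 lower genes, and of 2-fold 101 and 195. edgeR called 0 genes as reported, 1 with DESeq2 size factors and 11 without the filter on low counts (6 higher, 5 lower), and DESeq2 called 1. Of 70 list medians, 67 kept their sign under every scaling, and 40 had the same sign against both IMQ+VEH replicates. Keap1 had a log2 fold change of -0.048 with FPKM. Leaving out either IMQ+VEH replicate gave log2 fold changes with no test, from -0.016 to 0.26 for Gclm, -0.23 to 0.15 for Hcar2, -2.06 to 0.39 for Il17a, -0.011 to 0.034 for Keap1, -0.053 to 0.0068 for Krt16, -0.33 to 0.11 for Krt6a, -0.071 to 1.61 for Nqo1, -0.19 to 0.81 for Slc7a11, -0.25 to 0.90 for Tnf and -0.13 to 0.41 for Txnrd1; IMQ+VEH replicate 1 decides these for all but Hcar2 and Tnf, whose sign turns without replicate 2. The distance rule needs both IMQ+VEH libraries, so it could not be applied with 1 left out. The cause of these changes was not tested. No paired analysis was possible because the single IMQ+IDMF library has no second replicate to match. Low counts limit the genes near 3 counts, which is 0.113 to 0.142 CPM.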
